A study of Mus musculus with 106 samples.

Results

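The nuclear genes of the mitochondrial respiratory chain were followed through single cells of early mouse embryos, along the path from epiblast to primordial germ cells (PGCs), the founders of sperm and eggs. Members were the genes whose symbol starts with Nduf, Sdh (Sdha to Sdhd), Uqcr or Atp5, or with Cox and a digit, and which had an array probe set of a single gene symbol. By this rule 98 of the 18193 genes measured were members: 44 of complex I, 4 of complex II, 8 of complex III, 25 of complex IV and 17 of complex V. The rule and the split by complex used names alone and no measured value. It also took in 16 assembly factors, Ndufaf1 to Ndufaf8 and 8 Cox genes, and 8 isoforms known from particular tissues or from low oxygen.

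Every array measured 1 cell, whose cDNA had been amplified, and all embryos were C57BL/6. The wild-type lineage held 8 Oct4+, T+ epiblast cells of the pre-streak (PS) stage, 7 and 17 Blimp1+, Oct4+ PGC precursors of the Early/Mid-Streak (E/MS) and Late-Streak/0-Bud (LS/0B) stages, and 3 groups of 8 Blimp1+, stella+ PGCs, from Early/Mid-Bud (E/MB) embryos, from embryos of early head fold (EHF) stage, and from E8.25. Their wild-type neighbours were 10 Blimp1-, Oct4+, Hoxb1+ cells of the posterior mesoderm at E/MB, and Blimp1+, Hoxb1+ cells, called double-positive cells here, 4 labelled E/MB and 4 whose labels give EHF in one field and E/MB in the title. Blimp1 (-/-) cells numbered 20 at LS/0B and 12 at E/MB, and were picked by the transcript of the null allele, so their Prdm1 signal does not check the knockout. Blimp1, the product of Prdm1, is a repressor needed for PGCs to form, and stella is the product of Dppa3. Cells were picked at random after dissociation and screened by PCR for marker transcripts. The labels name no embryo, litter or pool, so each group counts as 1 sample, no test was possible, and an SD below is the spread over cells.

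The chain passes electrons from NADH through complex I, or from succinate through complex II, to ubiquinone, then through complex III and cytochrome c to complex IV, where oxygen is reduced. Complexes I, III and IV pump protons across the inner mitochondrial membrane, and complex V, the ATP synthase, makes ATP as they flow back. Nuclear genes encode most subunits and all the assembly factors, complex II is encoded wholly in the nucleus, and the factors NRF1, GABPA and YY1 are known to bind many of these promoters.

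Promoters were in the RefSeq table (GRCm38.p6) for 80 of the 98 members, 86 windows in all, each of 250 bases before and 50 after the start of transcription. The ETS core bound by GABPA, CCGGAAG, lay on either strand of 27.9% of member windows and of 8.86% of all 32851 windows of that length. The NRF1 site, the palindrome in capitals in Atp5k below, was in 6.98% of member windows and in 0.971% of all windows, and the YY1 site was in 6.98% against 0.852%. The ETS core ends and the YY1 site begins with AAG, so those matches can share bases, and member windows had a median GC content of 59% against 52.7%. A match is a description of the letters and no evidence of binding. Parts of 5 windows, all from the minus strand and ending at the start of transcription, are shown as examples of NRF1 and ETS matches. Group means spanned less than 1 log2 unit in Cox6a1, Atp5k and Atp5g2, and more in Sdhd and Cox10. The examples do not tie a motif to the span. NRF1 matches also lay in Ndufaf4 and Ndufaf5, which spanned more than 1 log2 unit, and ETS matches in Cox6b1 and Cox8a, which spanned less. A link between motif and span was not tested. Past the part shown, the Atp5k window also holds an ETS match and the Cox10 window a YY1 match, 12 and 21 bases after the start. Matched letters are in capitals (CTTCCGG is the ETS core on the other strand). In the parts shown, Cox6a1 (chr5:115348959-115349128) holds an NRF1 and an ETS match, Atp5k (chr5:108434400-108434499) and Atp5g2 (chr15:102671048-102671147) an NRF1 match, and Sdhd (chr9:50603850-50603949) and Cox10 (chr11:64079473-64079572) an ETS match.
Cox6a1: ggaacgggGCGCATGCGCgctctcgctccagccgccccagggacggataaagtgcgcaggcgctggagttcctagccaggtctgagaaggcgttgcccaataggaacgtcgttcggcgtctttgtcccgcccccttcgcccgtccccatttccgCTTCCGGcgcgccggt
Atp5k: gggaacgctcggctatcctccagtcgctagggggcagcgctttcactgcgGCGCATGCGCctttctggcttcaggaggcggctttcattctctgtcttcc
Atp5g2: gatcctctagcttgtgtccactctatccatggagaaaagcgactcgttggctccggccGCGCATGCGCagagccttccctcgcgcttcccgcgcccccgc
Sdhd: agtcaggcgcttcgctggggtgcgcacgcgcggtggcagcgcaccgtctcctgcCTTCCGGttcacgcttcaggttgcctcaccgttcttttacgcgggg
Cox10: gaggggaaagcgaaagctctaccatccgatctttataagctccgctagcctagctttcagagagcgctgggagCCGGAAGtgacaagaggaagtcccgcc

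Signals are MAS5 intensities on a log2 scale, raised to a floor of 6.13 where lower, and a gene was detected in a cell when it exceeded the 95th percentile of 126 background probe sets there. Between 5511 and 8311 genes were detected per cell. Some sets of arrays stood apart in genes that are no members. Naa20, picked after its values were seen, was detected in 0 of 8 E/MB PGCs, in 8 of 10 mesoderm cells, in all 8 double-positive cells and in 30 of the 32 knockout cells. Xist was detected in 8 of 8 epiblast cells, 8 of 17 LS/0B precursors and 5 of 8 EHF PGCs, and in 2 of the remaining cells. Hybridisation controls read 11.23 ± 0.33 (SD, n = 10 cells) in mesoderm and 9.79 ± 0.28 (n = 96) elsewhere. The part of these differences in the results below was not tested unless a value is given. Of the marker lists, 8 germ cell markers had a median score of 10.79 to 11.01 in the 3 PGC groups and 6.77 to 8.14 elsewhere, and 7 mesoderm markers had one of 9.21 to 9.97 in the mesoderm, double-positive and knockout groups and 6.23 to 6.46 in PGCs. The germ cell list holds Prdm1 and Dppa3 and the mesoderm list holds Hoxb1. Cells were picked by these transcripts, so the 2 scores are in part fixed by the picking and are no independent check of identity. The mesoderm markers had a median score of 9.27 in E/MS precursors and 8.72 in LS/0B precursors, and of 6.43 in epiblast. Markers of blood had median scores near the floor in every group (6.13 to 6.27 for 5 genes), as did those of visceral endoderm (6.17 to 6.53 for 6 genes). Even so, 1 visceral endoderm gene was detected in most cells of each double-positive group and of E/MB knockout cells. The 4 trophoblast markers had median scores from 6.41 in epiblast to 7.71 in mesoderm, where 2 of them were in most cells. The 7 epiblast markers had a median score of 10.65 in epiblast and 7.32 to 8.92 elsewhere.

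Transcripts of the respiratory chain were present throughout. Of the 98 members, 69 (70.4%) were detected in every cell, as were 8.94% of all genes measured. All 8 members of complex III and all 17 of complex V were in every cell, with 30 of 44 in complex I, 3 of 4 in complex II and 11 of 25 in complex IV. The other members were mostly assembly factors, of which only Cox17, a copper chaperone for complex IV, was in every cell, and tissue isoforms. Cox6a2 and Cox8b, isoforms of heart and skeletal muscle, Cox7b2, a testis isoform, and Ndufb4, an accessory subunit of complex I, were detected in 0 cells, which allows a share of up to 2.83% of cells. For Ndufb4 this speaks of its single-symbol probe set alone, since probe sets shared with its near copies were detected in every cell. Of the members found in some cell, 89 were broadly detected, that is in at least 50% of cells. The other 5 were Cox15, which makes haem A (6 cells), Cox4i2 (1), Ndufa4l2 (28), Cox7c (29) and Cox7a1 (32). Each count is that of the probe set used. The other Cox7c probe set was detected in 8 cells, and the other Cox15 probe sets in 0, 0 and 3 cells. The low counts of Cox7c and Cox15 thus speak of their probe sets and do not show that the transcripts were absent. At a stricter limit, the 99th percentile of background, 62 members were in every cell.

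Several subunits come in tissue isoforms. Cox6a1 had group means of 12.63 to 12.82, Cox6b1 12.30 to 12.77, Cox7a2 12.52 to 13.10 and Cox8a 11.41 to 12.29, while Cox4i2, the form induced by low oxygen, was detected in 1 cell and Cox4i1 in all cells. Ndufa4, a complex IV subunit despite its name, had means of 11.4 to 12.1, and its low-oxygen relative Ndufa4l2 was detected in 28 cells with means of 6.1 to 7.3. By their symbols, both were counted and scored with complex I here. Atp5g1, Atp5g2 and Atp5g3 encode the same mature c subunit of the ATP synthase rotor. Atp5g3 kept to 12.59 to 12.72 in all 11 groups, Atp5g2 was at 12.38 to 12.53 in PGCs and 11.81 to 12.22 elsewhere, and Atp5g1 ranged from 11.20 to 12.10. Atp5k, the e subunit of the membrane part of the synthase, had group means of 11.85 to 12.42. No level of one gene was set against that of another, because each probe set has its own response.

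Assembly factors varied far more from cell to cell than the subunits. The median SD within groups was 1.004 over the 16 assembly factors, whose median signal was 8.48, and 0.30 over the 67 subunits that are neither core subunits nor tissue isoforms, whose median signal was 11.50. Signal and spread went together over all genes. The 6 members with a mean of 8 to 9 had a median SD of 1.18 beside 1.09 for the 2011 other genes in that range, and the 52 members at 11 or above had 0.27 beside 0.32 for 554 other genes. The steadiest were Atp5g3 (SD 0.10), Uqcrb (0.12), Atp5j2 (0.13), Cox6a1 (0.14) and Cox7a2 (0.14). Many of these lay near the top of the measured range, where the brightest gene had a mean of 13.52, and whether differences among them were compressed was not tested.

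**Figure D1:**
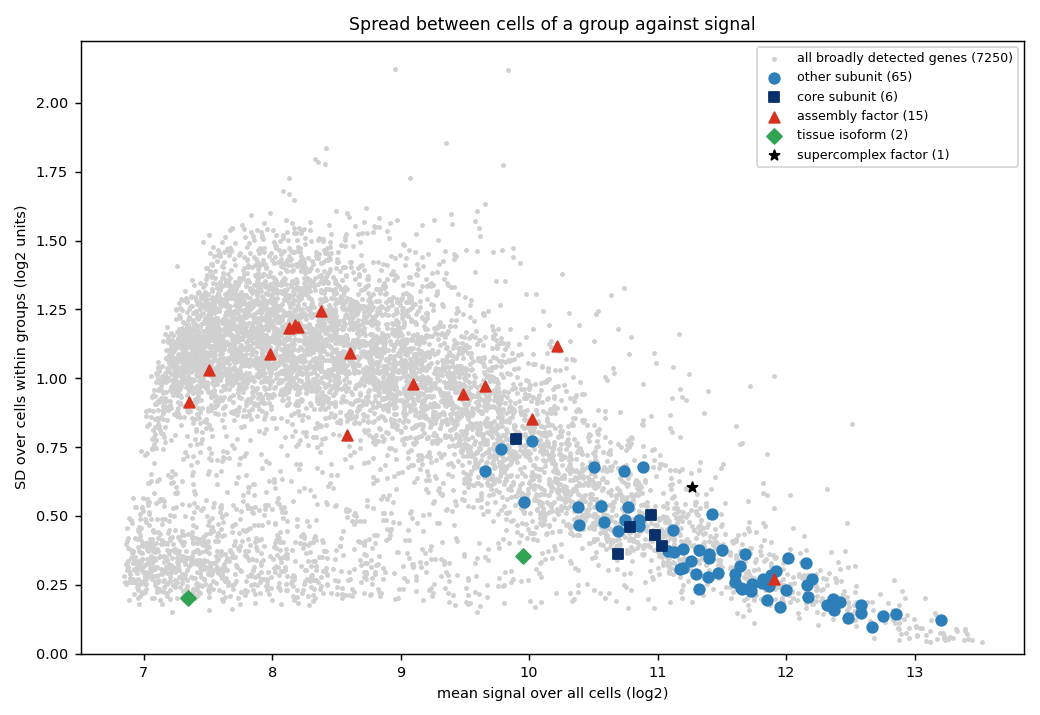
SD over cells within groups (log2 units) against mean signal over all cells (log2) for broadly detected genes; grey points are all 7250 such genes and coloured symbols the members by role. Assembly factors lie to the left at a median SD of 1.004 and other subunits to the right at 0.30, inside the band of all genes.

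Most members also kept their level from group to group. The 11 group means spanned at least 1 log2 unit in 26 of the 89 broadly detected members (29.2%), against 74.6% of all 7250 broadly detected genes. Among genes with a mean of 11 or above, the share was 7.69% of 52 members and 30.5% of all such genes. The median span lay closer, at 0.67 for those members and 0.78 for the 554 other genes. At a mean of 8 to 9 it was 1.62 for 6 members and 1.68 for 2011 other genes. Of the 29 members that spanned 1 log2 unit, 12 were assembly factors. The widest were Cox10 (2.13), Sdhd (2.04), Ndufaf7 (1.92), Ndufaf6 (1.92), Ndufaf8 (1.82), Ndufaf3 (1.80) and Cox7a2l (1.69).

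**Figure D2:**
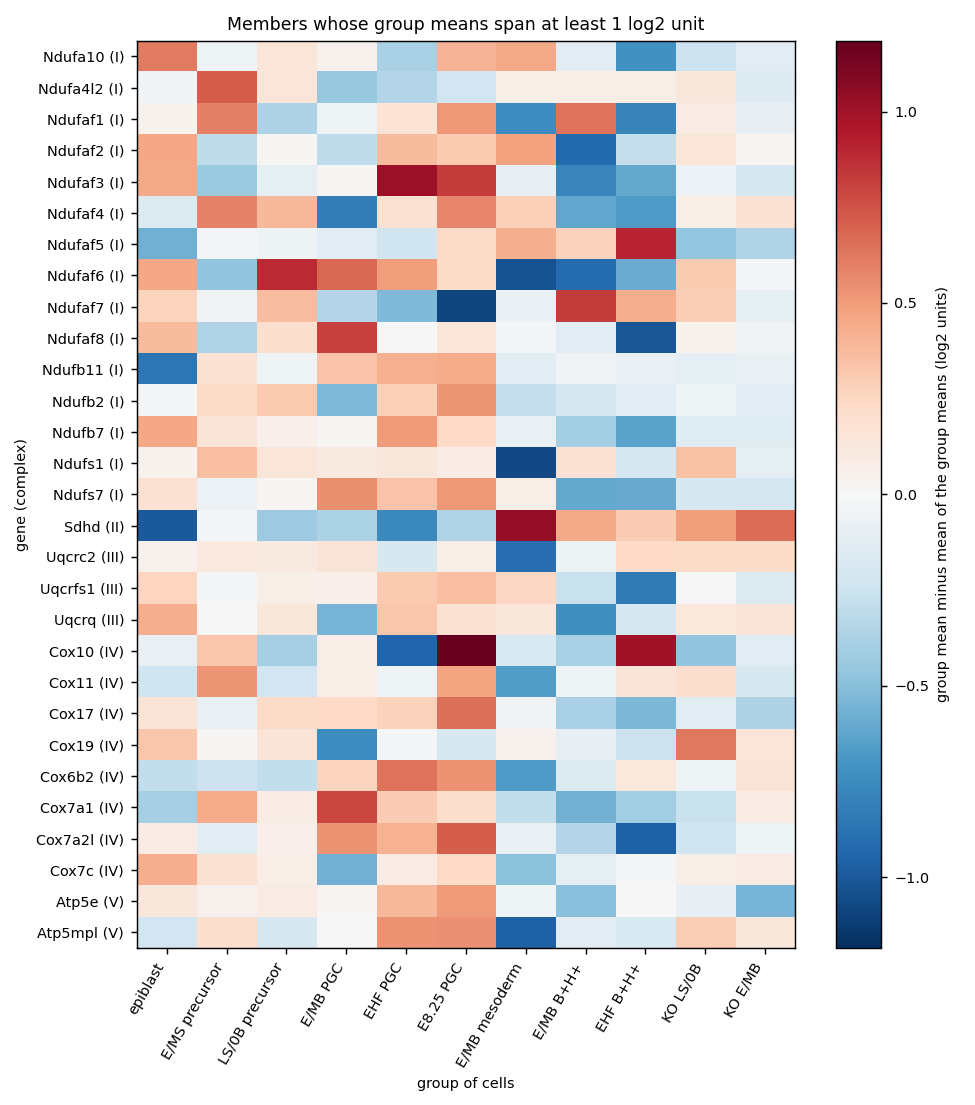
Group mean minus the mean of the 11 group means (log2 units, colour) for the 29 members whose group means span at least 1 log2 unit, by complex and group; B+H+ marks the Blimp1+, Hoxb1+ cells and KO the Blimp1 knockout. Sdhd is lowest in epiblast and highest in mesoderm, and Cox10 is lowest in EHF PGCs and highest at E8.25.

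Complex I assembly is guided by the Ndufaf genes, and these gave most of the differences seen in that complex. Ndufaf7, a mitochondrial methyltransferase, was detected in 6 of 8 epiblast cells (exact 95% interval 34.9 to 96.8%) and in 1 of 8 E8.25 PGCs (0.316 to 52.7%), intervals that cover counting error only and that overlap. Its signal had a low of 6.13, a median of 7.53 and a high of 8.94 in epiblast, and stood at 6.13 in all E8.25 PGCs except 1 at 7.08. The mean was lower by 1.36 at E8.25 (6.25 ± 0.34 against 7.61 ± 0.98), in dim signals whose ranges overlapped. The 4 E/MB double-positive cells had the highest Ndufaf7 mean, with 9.0025, 8.29, 8.70 and 6.71.

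Ndufaf6, required early in complex I assembly, was detected in 7 of 8 E/MB PGCs (47.3 to 99.7%) and in 3 of 10 mesoderm cells (6.67 to 65.2%). The low, median and high were 6.13, 8.69 and 9.62 in PGCs and 6.13, 6.38 and 8.70 in mesoderm, and 2 of the 4 E/MB double-positive cells lay at the floor (7.71, 6.13, 7.68 and 6.13). E/MS precursors had a mean of 7.36 ± 1.17 (n = 7) and LS/0B precursors 8.71 ± 1.12 (n = 17). Ndufaf4, partner of Ndufaf3 in assembling the hydrophilic arm, had means of 9.23 to 9.98 in all groups but the E/MB PGCs (8.57 ± 1.36) and both double-positive groups (8.78 ± 0.24 and 8.72 ± 1.89). The second probe set of Ndufaf4 gave another order for the PGC stages. In it the double-positive groups had 9.04 and 9.17, E/MB PGCs 8.10 and mesoderm 8.54. The low double-positive level thus rests on a single probe set. Ndufaf3 was highest in EHF PGCs (9.16 ± 0.89) and lowest in E/MB double-positive cells (7.36 ± 1.42). In all of these dim genes the cells of the groups overlapped.

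Among complex I subunits, Ndufb11, an X-linked accessory subunit of the membrane arm, was low in epiblast. Its low, median and high were 10.01, 10.61 and 11.39 in the 8 epiblast cells, 11.41, 11.59 and 11.92 in the 7 E/MS precursors, and 11.53, 11.89 and 12.24 in the 8 E8.25 PGCs. No epiblast cell reached the lowest cell of either group. The epiblast mean was 10.63 ± 0.44 and those of the other groups 11.36 to 11.92, and all 3 probe sets showed the same. After an alternative scaling by spiked lys controls, the differences from epiblast were 1.41 for E/MS precursors and 1.21 for E8.25 PGCs. Xist was detected in all 8 epiblast cells, in 0 of the 7 E/MS precursors and in 0 of the 8 E8.25 PGCs. Xist and group cannot be told apart in those comparisons. The LS/0B precursors with Xist had Ndufb11 at 11.47 ± 0.20 (n = 8) and those without at 11.41 ± 0.45 (n = 9), and the part of Xist was not tested. Ndufa1, the other X-linked member measured, ran the other way, at 11.77 ± 0.31 in epiblast, 10.85 ± 0.92 in EHF PGCs and 10.84 ± 0.68 in E8.25 PGCs, with overlapping cells.

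Ndufs7, an iron-sulphur core subunit, had a low, median and high of 10.72, 11.62 and 11.97 in E/MB PGCs. The 4 E/MB double-positive cells had 10.43, 10.69, 10.74 and 9.56, so that their highest cell just passed the lowest PGC. The 2 probe sets of Ndufs7 gave the same direction. Ndufa6, an accessory subunit of the matrix arm, averaged 11.99 to 12.19 in the 3 PGC groups (SD 0.18 to 0.19) and at most 11.59 in the others, and Ndufa3 showed the same split, at 12.08, 12.09 and 12.27 against at most 11.83. For E/MB PGCs against mesoderm, Ndufa6 turned from 0.57 to -0.06 under the lys scaling, where the median broadly detected gene was at -0.47. Ndufs1, the largest subunit, in the module that takes up electrons, was 9.67 to 10.23 in 10 groups and 8.81 ± 1.57 in mesoderm. The low mesoderm mean came from replicates 3 to 6, with 8.56, 6.14, 7.61 and 6.51, while the other 6 cells had 9.04 to 10.46.

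Complex II had 4 members, the catalytic Sdha and Sdhb and the membrane anchors Sdhc and Sdhd. Sdhd had the widest span of group means among them, 2.04. It had a low, median and high of 6.13, 9.02 and 9.63 in epiblast, 8.26, 9.45 and 10.09 in E/MB PGCs, 8.22, 9.09 and 9.73 in EHF PGCs, 7.91, 9.64 and 10.21 in E8.25 PGCs and 10.38, 10.83 and 11.11 in mesoderm. Every mesoderm cell was above every epiblast cell and every PGC. The double-positive cells had 9.67, 10.48, 10.28 and 10.32 at E/MB and 10.38, 9.96, 9.88 and 9.96 at EHF. In knockout cells the means were 10.23 ± 0.72 (LS/0B, n = 20) and 10.40 ± 0.82 (E/MB, n = 12), and both probe sets of the gene gave these directions.

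In some groups Sdhd went with genes that mark sets of arrays, and in others it did not. The 2 knockout cells without Naa20, which also lacked Ppp2cb, a phosphatase subunit picked after its values were seen, had Sdhd at 7.54 and 7.95, while the 30 with it had 9.76 to 11.07 (10.47 ± 0.35). In LS/0B precursors Sdhd averaged 9.28 in the 6 cells with Naa20 and 9.32 in the 11 without. It averaged 10.22 ± 0.53 in the 6 LS/0B precursors with Ppp2cb and 8.81 ± 1.17 in the 11 without. By Xist, Sdhd was at 10.19 ± 0.46 in the 8 that had it and 8.52 ± 1.09 in the 9 that did not, and all 6 cells with Ppp2cb were among those 8. In mesoderm, replicate 5, without Naa20 and Ppp2cb, had Sdhd at 10.38. Replicate 6, without Ppp2cb, had 10.46, and replicate 8, without Naa20, had 11.02. The E/MS precursors with Ppp2cb had 10.35 and 9.73, and those without had 8.25 to 10.33. The part of the array sets in the Sdhd differences was not tested. The epiblast cells, all with Xist, had the lowest Sdhd mean of any group, 8.74 ± 1.14. Sdhc, the other anchor, had its lowest mean in EHF PGCs, 9.23 ± 0.97.

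**Figure D3:**
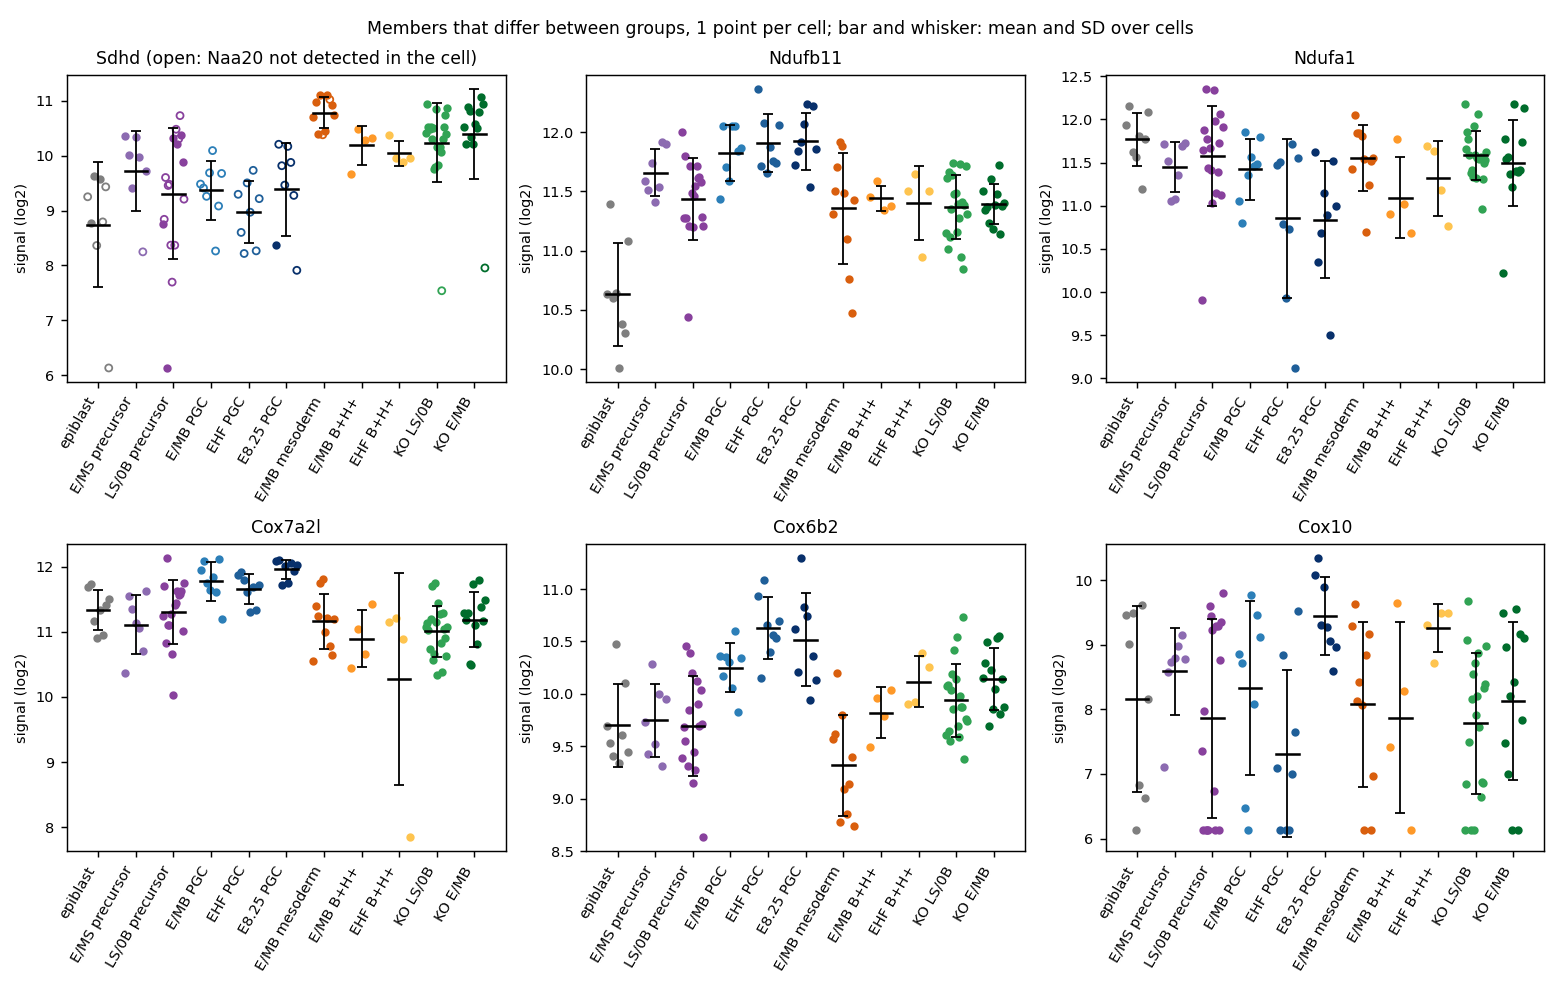
Signal (log2) in each cell for Sdhd, Ndufb11, Ndufa1, Cox7a2l, Cox6b2 and Cox10 by group; points are cells, bars and whiskers the mean and SD over cells, and open Sdhd points are cells without detected Naa20. Mesoderm cells lie above all PGCs for Sdhd (10.38 to 11.11 against 7.91 to 10.21), and the 2 low knockout points at 7.54 and 7.95 are open.

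Complex III had 8 members. Uqcrb, a small subunit near the ubiquinone site, had means of 13.26 to 13.43 in epiblast, precursors and PGCs, 12.58 ± 0.22 in mesoderm, 13.09 and 13.15 in the double-positive groups and 13.14 and 13.05 in the knockout groups. Mesoderm cells ranged from 12.23 to 12.95, below every PGC at the same stage. Uqcrc2, a core protein, was 10.64 to 11.08 in 10 groups and 9.94 ± 1.16 in mesoderm, where replicates 3 to 6 had 9.59, 8.71, 8.64 and 7.87 and the other 6 cells 10.57 to 11.24. Atp5mpl, a small subunit of complex V, was low in the same 4 cells, at 8.87, 9.001, 8.28 and 8.37 against 10.18 to 10.98. The median signal of broadly detected genes in those 4 arrays was 8.65, 8.52, 8.38 and 8.20, and 8.57 to 9.03 in the other 6, so 3 of the 4 arrays were dimmer than any of the others.

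In complex IV, Cox10 spanned more than any other member. Cox10 is the farnesyltransferase that makes haem O, a step toward the haem A of complex IV. The low, median and high were 6.13, 7.04 and 9.53 in EHF PGCs, where 5 of 8 cells had it, and 8.60, 9.29 and 10.34 in E8.25 PGCs, where all 8 had it. Its mean was 9.44 ± 0.61 at E8.25 and 7.31 ± 1.29 at EHF, and between 7.79 and 9.25 in the other 9 groups. The second probe set of Cox10, detected in 53 cells, stayed between 6.89 and 8.02 and did not show the E8.25 level, and the third was detected in none, so the difference rests on a single probe set.

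Cox7a2l, which helps complexes III and IV form supercomplexes, is known to be shortened and unstable as a protein in C57BL/6 mice. Its transcript was higher in PGCs, at 11.77 ± 0.30, 11.66 ± 0.23 and 11.96 ± 0.15, than in the other groups, at 10.27 to 11.34. The lowest of these means, in EHF double-positive cells, rested on 1 cell (11.15, 11.21, 10.89 and 7.85). All 3 probe sets gave the PGC groups the highest means, though single cells overlapped. For E/MB PGCs against mesoderm the difference of 0.62 came to -0.01 under the lys scaling. Cox6b2, known as a testis isoform, was detected in all cells and averaged 10.25 ± 0.23, 10.63 ± 0.29 and 10.52 ± 0.44 in PGCs and 9.32 to 10.14 elsewhere. Cox7a1, a heart and muscle isoform, was found in 4 of 8 E/MB PGCs (8.97, 8.79, 9.17 and 8.49) and in 32 cells in all. Cox8c, another testis isoform, was dim, with means of 6.97 to 7.70. Cox4i1 was highest at E8.25, 12.80 ± 0.11, with 12.09 to 12.65 in the other groups, and Cox17 was highest there too, 12.53 ± 0.19.

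The mean over the members of a complex gives each cell a score, and the scores moved little. The score over all members was 10.54 to 10.58 in epiblast, precursors and E/MB and EHF PGCs, 10.69 ± 0.08 at E8.25, 10.43 ± 0.06 in mesoderm, 10.33 ± 0.09 and 10.35 ± 0.09 in the double-positive groups and 10.48 ± 0.07 and 10.44 ± 0.08 in the knockout groups. Complex V scores were 11.91 to 12.02 in epiblast, precursors and PGCs, 11.71 ± 0.09 in mesoderm, 11.69 and 11.67 in double-positive cells and 11.85 and 11.80 in knockout cells. The complex II score was 10.54 in mesoderm, 10.35 to 10.41 in the double-positive and knockout groups, and 9.96 to 10.23 in the others. With 4 members, Sdhd weighs heavily in it. Sdha averaged 10.30 in mesoderm, 10.83 in E/MB PGCs and 10.88 in E/MB double-positive cells, and Sdhb was lowest in those double-positive cells, at 10.34. For E/MB knockout cells minus PGCs, Sdhd differed by 1.03 and the others by -0.25 (Sdha), -0.08 (Sdhb) and 0.03 (Sdhc), with a median of -0.03 beside a score difference of 0.18. Across all cells, which share group and array brightness, Pearson's r was 0.71 between the scores of complexes I and V and 0.72 between III and V, and 0.57 and 0.45 after each group's mean was taken out. Complex II correlated at -0.13 to -0.22 with the others over all cells and at -0.03 to 0.30 within groups. The scores also followed the median signal of broadly detected genes on the array, at r of 0.17 to 0.44.

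**Figure D4:**
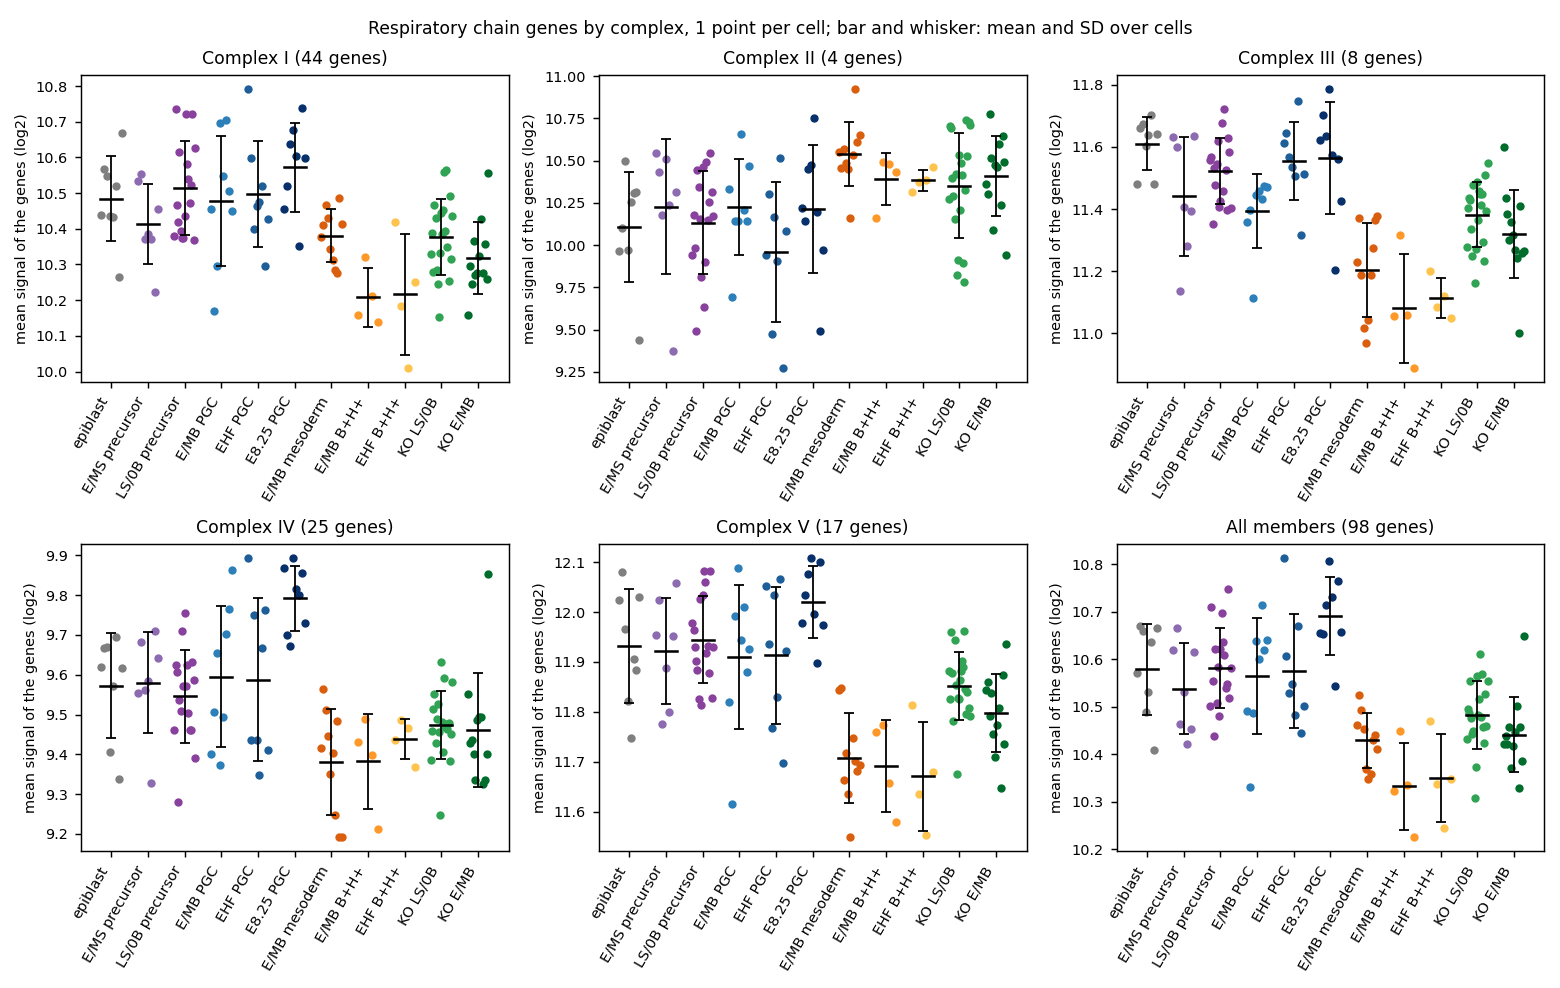
Mean log2 signal of the members of each complex, and of all 98, in every cell by group; points are cells, bars and whiskers the mean and SD over cells. Complex V is at 11.71 in mesoderm and 12.02 in E8.25 PGCs, and the complex II score, which moves largely with Sdhd, is at 10.54 in mesoderm.

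Along the wild-type lineage, few members moved by 1 log2 unit between stages, beside a larger share of all genes. Each background below is the share of all 18193 genes, and then of the 7250 broadly detected ones, that differed by at least 1 log2 unit in either direction. From epiblast to E/MS precursors 1 of 98 members did, Ndufb11 (1.03), beside 5.6% and 10.4%. From E/MS to LS/0B precursors 1 did, Ndufaf6 (1.35), beside 2.95% and 5.92%. From LS/0B precursors to E/MB PGCs 1 did, Ndufaf4 (-1.21), beside 5.62% and 10.8%. From E/MB to EHF PGCs 3 did, Ndufaf3 (1.0022), Ndufaf4 (1.0020) and Cox10 (-1.02), beside 4.17% and 7.71%. From EHF to E8.25 PGCs 1 did, Cox10 (2.13), beside 3.25% and 6.18%. From epiblast straight to E8.25 PGCs 3 did, Ndufb11 (1.29), Cox10 (1.27) and Ndufaf7 (-1.36), beside 10% and 18.9%. Single cells decided some of these counts: with any 1 cell left out, the counts ran from 0 to 3 for the first step, 1 to 2 for the second, 0 to 2 for the third and 0 to 3 for the fourth.

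The median difference over the 89 broadly detected members stayed small at each of those steps. It was -0.08, 0.05, 0.01, -0.01 and 0.09 from the first step to the last, and 0.07 from epiblast to E8.25, beside -0.04, 0.01, 0.01, -0.01, 0.02 and -0.02 over all broadly detected genes. Shifting every array by its spiked lys controls brought the median of all broadly detected genes at the steps to 0.35, -0.33, -0.45, 0.38 and -0.05 and moved the members by as much, so only the distance of members from all genes is independent of that scaling.

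PGCs and mesoderm of the same stage, E/MB, differed in 6 of 98 members, beside 12.1% of all genes, and in 5 of the 89 broadly detected members, beside 24.3% of broadly detected genes. Ndufaf6 (1.72), Ndufs1 (1.17), Uqcrc2 (1.05) and, outside the broadly detected members, Cox7a1 (1.09) were higher in PGCs, and Sdhd (-1.41) and Ndufaf4 (-1.11) were lower. The Ndufs1 and Uqcrc2 differences rest on the 4 mesoderm cells described above: without them they were 0.11 and 0.22, while Ndufaf6 was 1.36 and Sdhd -1.55. The cells of the groups did not overlap in 3 broadly detected members, beside 3.56% of broadly detected genes: Sdhd, Uqcrb (0.83) and Atp5d, the delta subunit of complex V (0.66). The median member was higher in PGCs by 0.12 and the median broadly detected gene by 0.16, so members as a body did not stand above other genes, and with arrays set to an equal median the member value became -0.15. Of these, Sdhd and Uqcrb kept their direction under every scaling tried, with -2.04 and 0.21 after the lys shift, where Atp5d came to 0.04. Naa20 was detected in 8 of 10 mesoderm cells and 0 of 8 PGCs, so array set and cell type can hardly be told apart in this comparison.

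Against the 4 double-positive cells of E/MB, the median member of PGCs lay farther from the median of all broadly detected genes than in any other of the 11 comparisons. The median member was 0.30 higher in PGCs. The median broadly detected gene was 0.05 higher and the median gene with a mean of 11 or above 0.11. Of the 89 broadly detected members 72 (80.9%) were above 0, beside 53.1% of broadly detected genes and 66.7% of genes with a mean of 11 or above. Only 4 of 98 members differed by 1 log2 unit, beside 10.7% of all genes, and 3 of the 89, beside 20%: Ndufaf6 (1.60), Ndufs7 (1.16) and Ndufaf7 (-1.18), with Cox7a1 (1.36) outside the broadly detected members. The cells did not overlap in 10 broadly detected members, all higher in PGCs, beside 5.16% of broadly detected genes. They were Uqcrb of complex III, Ndufb9, Ndufc2, Ndufa6, Ndufa7 and Ndufa13 of complex I (0.88 for Ndufa13), Cox5b, Cox6c and Cox17 of complex IV, and Atp5d (0.70). With 4 cells in a group a lack of overlap is easily met, and the count of 4 ran from 3 to 7 with any 1 cell left out. All 4 double-positive cells had Naa20 and no E/MB PGC did, so the array set and the cell type cannot be told apart here. Stress genes differed as well: 7 of them, Fos, Jun, Egr1, Atf3, Ddit3, Hspa1a and Hspa1b, had a score from 7.26 to 8.40 (median 7.42) in the double-positive cells and from 6.13 to 6.90 (median 6.41) in PGCs, and 4 of the 7 were lower in PGCs by at least 1 log2 unit. This level was not particular to these cells. The median was 7.44 in E/MS precursors, 7.67 in LS/0B precursors and 6.24 in EHF double-positive cells. The part of the stress genes in the result was not tested.

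Blimp1 knockout cells had somewhat lower signals for members than LS/0B precursors and E/MB PGCs. Their member score at E/MB, 10.44, was next to that of mesoderm, 10.43, and above that of the double-positive cells, 10.33. At LS/0B the median broadly detected member was -0.13 and the median broadly detected gene 0.05. Below 0 were 67 of 89 members (75.3%), 44.6% of broadly detected genes and 61.6% of genes with a mean of 11 or above. There 0 of 98 members differed by 1 log2 unit, beside 1.45% of all genes and 2.92% of broadly detected ones. At E/MB, against PGCs, the medians of members and of all broadly detected genes were -0.21 and 0.01, and after the lys shift 0.48 and 0.70. Below 0 were 63 of 89 members (70.8%), 49.4% of broadly detected genes and 54.5% of genes with a mean of 11 or above. In that comparison 1 of 98 members differed by 1 log2 unit, Sdhd (1.03), beside 7.61% and 14.3%. Without 1 cell the count ran from 0 to 3. The cells did not overlap in 2 broadly detected members, beside 0.979% of broadly detected genes: Uqcrb (-0.36) and the dim Cox8c (-0.67), both lower in knockout cells, though Uqcrb turned to 0.33 after the lys shift. The 2 knockout cells without Naa20 had a member score of 10.61 ± 0.06 (n = 2), close to that of wild-type precursors and PGCs, and the 30 with it 10.46 ± 0.07. At LS/0B Naa20 was detected in 19 of 20 knockout cells and 6 of 17 precursors. At E/MB it was detected in 11 of 12 knockout cells and 0 of 8 PGCs. Array set and genotype can thus hardly be told apart in these comparisons.

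Set against E/MB mesoderm, the E/MB knockout cells had 3 of 98 members apart by 1 log2 unit, beside 8.17% of all genes and 17.9% of broadly detected ones. These were Uqcrc2 (1.12), Atp5mpl (1.10) and Ndufaf6 (1.01), all higher in knockout cells. Without the same 4 mesoderm cells the count was 0, with Uqcrc2 at 0.29, Atp5mpl at 0.35 and Ndufaf6 at 0.66, and over single cells left out the count ran from 0 to 4. The median member was -0.02 and the median broadly detected gene 0.15. The comparisons with E/MB PGCs and with mesoderm share those groups' cells, so their values are not independent of one another.

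**Figure D5:**
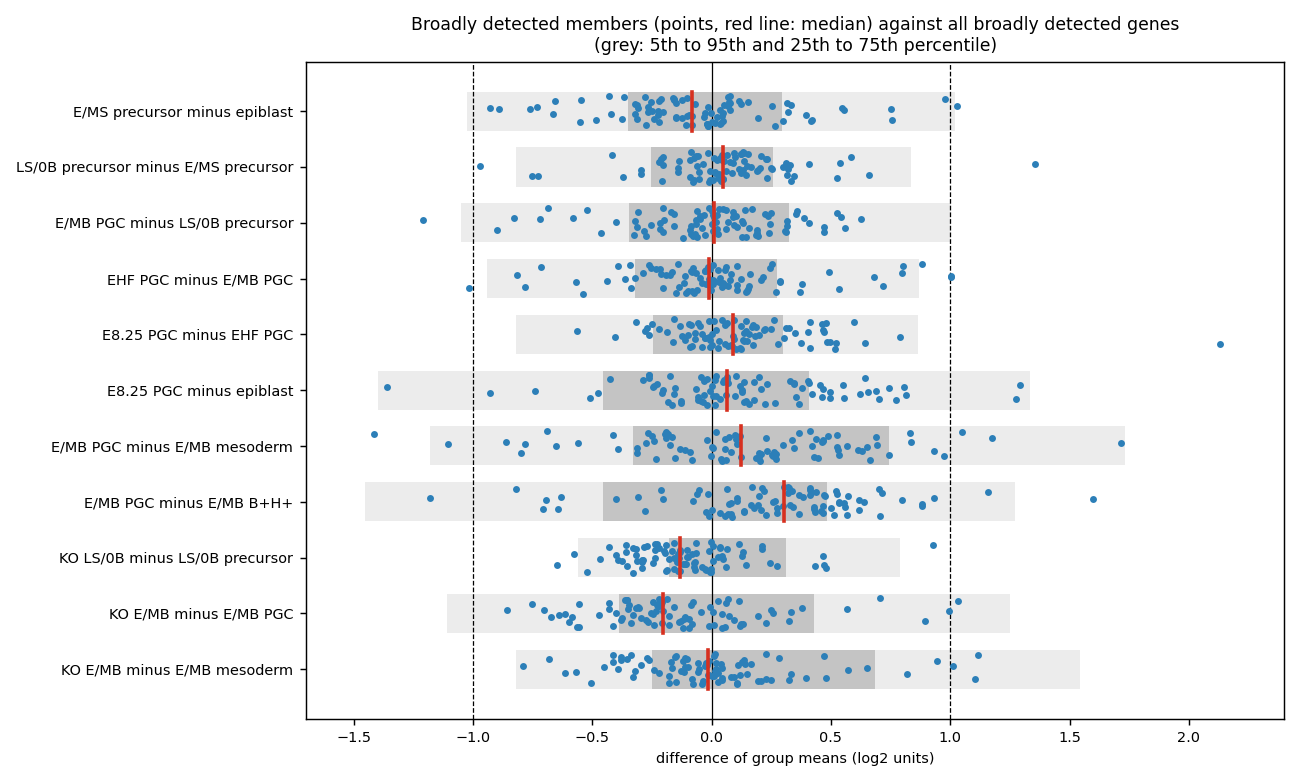
Difference of group means (log2 units, first group minus second) of the 89 broadly detected members in the 11 comparisons; blue points are members, red lines their median, and grey bars the 25th to 75th and 5th to 95th percentiles of all broadly detected genes. The median is farthest above 0 for PGCs against double-positive cells (0.30) and farthest below 0 for E/MB knockout cells against PGCs (-0.21).

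Other genes of mitochondrial function, from lists chosen by role, give the members' surroundings. Of 18 regulators of mitochondrial DNA expression and biogenesis, 5 were lower by at least 1 log2 unit in E8.25 PGCs than in epiblast: Gabpb1 (-1.92) and Gabpa (-1.55), the subunits of the ETS factor GABP, Yy1 (-1.32), Tfam (-1.14), which packages mitochondrial DNA, and Nrf1 (-1.09). Tfb1m, which modifies mitochondrial ribosomal RNA, was higher (1.04), and the list's median was -0.13. That makes 6 of 18 past 1 log2 unit, beside 10% of all genes and 18.9% of broadly detected ones.

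Of 33 assembly factors and carriers outside the rule, 2 were higher and 4 lower in the same comparison, beside the same 10% and 18.9%. Sdhaf4, an assembly factor of complex II, had means of 8.75 ± 1.501 in epiblast and 11.07 ± 0.58 at E8.25. Among 8 carriers and channels Slc25a4, an ADP/ATP carrier, was higher (1.82), and the porins Vdac1 (-1.41) and Vdac2 (-1.16) were lower. Of 17 genes of pyruvate oxidation and the citrate cycle, Pcx (1.49) and Ogdh (1.17) were higher and Idh3a (-1.51) lower, and of 7 antioxidant enzymes Gpx4, which reduces lipid peroxides, was higher (1.81).

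Between E/MB PGCs and mesoderm, where 12.1% of all genes and 24.3% of broadly detected ones were apart by 1 log2 unit, 2 of the 17 pyruvate and citrate cycle genes were higher in PGCs, Pdha1 (1.80) and Dlat (1.45), both parts of pyruvate dehydrogenase, and Dlst (-1.10) was lower. Without the 4 mesoderm cells Pdha1 was at 0.92 and Dlat at 0.76. Of the 18 regulators 3 were higher, Esrra (1.33) among them, and 2 lower, Mterf3 (-1.52) among them. ND5, the only mitochondrially encoded subunit measured here, was at 12.49 ± 0.17 in PGCs and 11.22 ± 0.74 in mesoderm, or 11.67 without those 4 cells. Of 76 mitochondrial ribosomal proteins 5 were higher and 10 lower. In E/MB knockout cells against PGCs, 7.61% of all genes and 14.3% of broadly detected ones were apart by at least 1 log2 unit. Of the factors outside the rule, Sco2, Coa3, Nubpl and Dmac2 were lower and Atpaf1, Sdhaf1 and Higd1a higher by that size. Of the 18 regulators only Tfb1m (-1.09) passed it.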

How the data were processed

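The authors deposited 1 linear intensity for each probe set in each cell; the submitters' processing notes name MAS5. Its version and scaling target, and the build behind the probe design, are not given in the sources used for this work. Of 45101 probe sets, 34945 had 1 gene symbol and were used. Values below 70.2 (6.13 in log2), the median over cells of the 90th percentile of 126 background probe sets (olfactory, vomeronasal and taste receptor and keratin-associated genes), were raised to it and log2 was taken. The limit of detection in a cell, their 95th percentile, lay at signals of 82.8 to 166. The probe set with the highest mean stood for its gene. The number of arrays limits the precision. Differences are of group means over cells, and at least 1 log2 unit was a statement of size. The members and lists were chosen with earlier results of these data known. Genes were named when apart by that size in a comparison and detected in at least 75% of cells of the higher group, among the 10 widest, in an isoform set, X linked, in every or no cell, or in a list and apart by that size; others were chosen after their values were seen (Naa20, Xist, Cox7a1, Cox4i1, Cox17, Ndufa3, Ndufa6, Atp5d, Uqcrb, Sdhc and the members without overlap). The scripts were tested on simulated data (Python 3.11.15, numpy 2.4.6, pandas 2.3.3). Genes with no single-symbol probe set, such as Cox7b, are not analysed here.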

Additional observations from a re-analysis of the deposited data

Results flagged for a closer look

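In 168 sets of 4 to 10 cells, the scores and named members were searched for a highest or lowest cell far from the rest. The limit used flags about 1 in 20 sets of normally distributed values, and 17 were found. In several sets cells lie at the floor of 6.13, as for Ndufaf7 at E8.25, and that rate does not hold there. The number found therefore cannot be set against chance. Each value below is that cell's log2 signal or score, with the nearest other cell of its group after it.

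In epiblast the cells were replicate 8 for Sdhd (6.13, then 8.36), replicate 6 for Ndufs1 (8.89, then 9.73) and replicate 2 for Cox7a1 (7.17, then 6.47). In E/MS precursors they were replicate 6 for the complex II score (9.37, then 10.18), replicate 5 for the complex IV score (9.33, then 9.56), replicate 1 for Cox10 (7.11, then 8.57) and replicate 3 for Uqcrc2 (10.04, then 10.82). In E/MB PGCs they were replicate 3 for the complex III score (11.11, then 11.36) and replicate 8 for Ndufaf6 (6.13, then 8.10). In E8.25 PGCs they were replicate 2 for Ndufaf3 (6.13, then 8.69), replicate 4 for Ndufaf4 (8.70, then 9.93), replicate 8 for Ndufaf7 (7.08, then 6.13) and replicate 8 for Ndufs7 (10.93, then 11.36). In mesoderm it was replicate 8 for Cox7a1 (8.02, then 6.99). In EHF double-positive cells they were replicate 6 for Cox7a1 (6.77, then 6.13), replicate 8 for Cox7a2l (7.85, then 10.89) and replicate 5 for Sdhd (10.38, then 9.96).

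Of 11 probe sets shared by several symbols, among them 1 that the naming rule would take, 6 were detected in every cell. They belong to Ndufs5, Ndufb4 (2 probe sets), Ndufa11, Ndufs6 and Ndufab1 with their near copies or pseudogenes, and were left out of the members.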

How the results depend on the processing

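No difference named as 1 log2 unit or more changed direction under the alternatives below, but the second probe set of Ndufaf4 alone gave -0.14 for EHF minus E/MB PGCs, where the value was 1.0020. Under settings other than leaving out a cell, 177 values of single members moved by less than 1 SD over cells and 8 by more, and all 418 with a cell left out moved by less. The counts of members past 1 log2 unit were less stable. The comparisons are lettered here: A, epiblast to E/MS; B, E/MS to LS/0B; C, LS/0B to E/MB PGC; D, E/MB to EHF; E, EHF to E8.25; F, PGCs against mesoderm; G, PGCs against double-positive cells; H, knockout against wild type at LS/0B; I and J, E/MB knockout cells against PGCs and against mesoderm. Without the floor the counts from A to J were 8, 8, 4, 5, 2, 11, 10, 3, 4 and 7. With a floor at the 95th percentile D became 0 and G 2. With the mean of all probe sets A became 2, D 1 and E 0. With medians over cells A became 3, B 3, C 4 and I 4. With arrays at an equal median A, B and I became 2 and J 1, and the median difference over the 98 members became -0.17 in F and -0.24 in J. With arrays shifted by the lys controls A, B, C, D, F and I became 6, 4, 8, 8, 12 and 9, with medians of 0.36, -0.30, -0.45, 0.39, -0.52 and 0.51. In those comparisons the median of all broadly detected genes became 0.35, -0.33, -0.45, 0.38, -0.47 and 0.70, and the distance of members from it did not change. Without cells holding Xist, B, C, D and E became 4, 3, 5 and 3 and H 1. Without the 2 knockout cells lacking Naa20, H became 1, and without 4 mesoderm cells J became 0; both alternatives were added after seeing the data. With any 1 cell left out, the counts ran from 0 to 3 in A, 1 to 2 in B, 0 to 2 in C, 0 to 3 in D, 3 to 7 in G, 0 to 1 in H, 0 to 3 in I and 0 to 4 in J. The causes were not tested. No paired analysis was possible because replicate numbers only name cells and tie no cell of one group to a cell of another. Dim signals near the limit of detection, as for Ndufaf7, Cox10 and Cox8c, set the limit on what could be seen.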
